A study of Mus musculus with 2 samples.

Results

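Heat shock proteins and DnaJ chaperones were described in 2 mouse testis libraries. The genes were all rows of the deposited table whose symbol begins with Hspa, Hspb, Hspd, Hspe, Hsph, Hsp90 or Dnaj, without Hspa1l, Hspbp1, Hspbap1 and names ending in -ps. These were 68 of 18722 loci, 23 of them heat shock proteins and 45 DnaJ proteins, and the rule uses no measured value. The control library came from testis with a control short hairpin RNA (shControl, genotype WT) and the knockdown library from testis with a hairpin against Dmrt1 (shDmrt1, genotype Dmrt1 knockdown). Both were from male C57BL/6J mice 16 weeks old. The targeted gene, Dmrt1, encodes a DNA-binding regulator of the male gonad. Because each group is 1 library, nothing could be tested between them, and all values describe these 2 libraries. The labels state neither the number of animals in a library nor how the hairpins were delivered.

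Molecular chaperones bind unfolded stretches of other proteins and help them fold, cross membranes or be degraded. HSP70 proteins do this in cycles of ATP binding and hydrolysis. DnaJ proteins, also called J proteins or HSP40, bring clients to HSP70 and start the hydrolysis, and exchange factors such as the HSP110 proteins release the nucleotide. HSP90 proteins act later and on fewer clients, steroid receptors among them. HSP60 and HSP10 form a folding chamber in mitochondria, and small heat shock proteins hold unfolded clients without ATP. Heat and other stresses induce some of these genes through the transcription factor HSF1, which binds heat shock elements made of repeated GAA units in alternating orientation. In the testis several members are known from germ cells, where Hspa2 is needed for meiosis in male mice.

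Promoters of the genes that the results turn on are shown first. RefSeq promoter windows on GRCm38.p6, running from 250 bases before to 50 bases after a start site, matched 54 of the 68 genes. Those without a window were Hspa8, Hspa9, Hspa13, Hsp90aa1, Hsp90ab1, Hspb2, Dnajc2, Dnajc5, Dnajc5b, Dnajc11, Dnajc12, Dnajc18, Dnajc22 and Dnajc30. The Hspa1a window (chr17:34972107-34972406, minus strand) and the Hspb1 window (chr5:135887669-135887968, plus strand) belong to stress-inducible genes that were lower in the knockdown library. The Hspe1 window (chr1:55087898-55088197, plus strand) is the shared promoter of Hspe1 and Hspd1, which lie head to head. It overlaps the Hspd1 window on the other strand by 285 bases. The Dnajb6 window (chr5:29735648-29735947, plus strand) belongs to a gene that was higher. The Hspa5 window (chr2:34771840-34772139, plus strand) shows the ER stress element. Capitals mark pairs of GAA units, spelled GAANNTTC or TTCNNGAA, which read the same on both strands. In Hspa5 capitals mark the ER stress element, CCAAT and CCACG with 9 unspecified bases between them, searched on both strands.
Hspa1a: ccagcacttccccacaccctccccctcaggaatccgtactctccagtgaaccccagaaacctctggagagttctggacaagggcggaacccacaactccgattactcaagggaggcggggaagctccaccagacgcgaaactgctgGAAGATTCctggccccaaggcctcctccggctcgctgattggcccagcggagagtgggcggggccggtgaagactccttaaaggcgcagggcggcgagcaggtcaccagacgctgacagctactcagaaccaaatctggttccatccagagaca
Hspb1: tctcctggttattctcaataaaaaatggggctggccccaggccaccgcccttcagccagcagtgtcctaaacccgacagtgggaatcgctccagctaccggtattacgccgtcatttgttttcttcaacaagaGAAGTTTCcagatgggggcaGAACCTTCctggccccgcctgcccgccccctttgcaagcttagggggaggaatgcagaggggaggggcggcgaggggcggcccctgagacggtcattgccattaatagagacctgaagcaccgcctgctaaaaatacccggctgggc
Hspe1: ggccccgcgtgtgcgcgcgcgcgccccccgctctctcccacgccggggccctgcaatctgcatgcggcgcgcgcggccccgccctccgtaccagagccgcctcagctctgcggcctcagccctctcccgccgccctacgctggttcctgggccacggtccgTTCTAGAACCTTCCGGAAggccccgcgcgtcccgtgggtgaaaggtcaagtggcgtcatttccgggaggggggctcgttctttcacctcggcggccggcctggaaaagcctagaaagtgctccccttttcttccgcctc
Dnajb6: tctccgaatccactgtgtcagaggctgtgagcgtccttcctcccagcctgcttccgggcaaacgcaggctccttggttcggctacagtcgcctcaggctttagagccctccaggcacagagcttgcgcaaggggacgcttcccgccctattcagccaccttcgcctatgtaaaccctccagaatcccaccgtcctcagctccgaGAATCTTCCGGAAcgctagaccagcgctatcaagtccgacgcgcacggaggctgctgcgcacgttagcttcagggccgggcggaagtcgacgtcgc
Hspa5: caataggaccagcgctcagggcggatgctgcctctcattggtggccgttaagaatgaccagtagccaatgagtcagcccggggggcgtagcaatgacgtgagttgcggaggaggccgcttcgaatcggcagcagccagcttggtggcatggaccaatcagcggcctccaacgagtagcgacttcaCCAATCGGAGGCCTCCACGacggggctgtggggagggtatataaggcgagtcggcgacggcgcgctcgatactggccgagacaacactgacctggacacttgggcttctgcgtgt

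The 2 libraries differed widely in their cell type markers, and the values are given here for the gene groups below. The total was 17846426 counts for the control and 24594371 for the knockdown. Dmrt1 itself had 852 and 39 counts. All 7 measured Leydig cell markers were lower in the knockdown library, with summed levels of 23376 and 240.1 in CPM, counts scaled to the library total (control first here and below) and none at 0. All 9 measured Sertoli markers were lower, 1459 against 153 CPM, and none was at 0. All 10 markers of spermatogonia and spermatocytes were lower, 204 against 3.05 CPM, with Piwil1, Stra8, Syce1 and Tdrd1 at 0 in the knockdown library. All 9 measured spermatid markers were lower. With Acrv1, which stayed below 1 CPM, the spermatid list summed to 43.5 against 1.26 CPM, so germ cell transcripts were scarce in the control testis too. Acrv1 was the spermatid marker at 0 in the knockdown library. All 9 measured macrophage and monocyte markers (665 and 5249 CPM), all 10 neutrophil markers (11.5 and 956 CPM, 3 of them at 0 in the control), all 9 measured T and NK cell markers (94.0 and 611 CPM) and all 10 endothelial markers (130 and 395 CPM) were higher. Of 10 fibroblast markers 9 were higher and 1 lower (1396 and 8570 CPM). In bulk tissue, fewer cells of a type and less RNA per cell cannot be told apart. The part of these cell types in the chaperone values was not tested.

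Of the chaperone genes that differed between the libraries, more were lower than higher after knockdown. The calls required a difference of at least 1.5-fold in scaled counts and a 95% Clopper-Pearson counting interval that excluded equality. Of the 68 genes, 65 reached 1 CPM in at least 1 library. Of these, 5 passed through the control library alone (Dnajb3, Dnajb7, Dnajc5g, Hspa1a and Hspb9) and 3 through the knockdown library alone (Dnajc30, Dnajc6 and Hspb2). Of the 65, 12 (18.5%) were higher, against 29.7% of all 15104 loci that passed. Another 21 (32.3%) were lower, against 32.5% of all loci, and 32 were neither. The share of lower genes was thus near the background, and the share of higher genes was below it. The median log2 ratio of the 65 genes was 0.012, beside -0.020 for all loci. Scaled by library totals in place of TMM, log2 ratios shifted by a median of -0.44. Then 3 were higher and 30 lower, against 20.6% and 45.6% of all loci. The 21 lower calls were kept, 9 genes became lower and 9 of the 12 higher calls were lost, as given with each gene below. That scaling changed the sign of 17 genes, and all 17 counted as neither. By the stricter rule that the whole interval lies beyond 2-fold, 3 were higher and 9 lower, beside 17.8% and 20.8% of all loci. Together the 68 genes took 0.979% of all control counts and 0.746% of all knockdown counts.

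**Figure D1:**
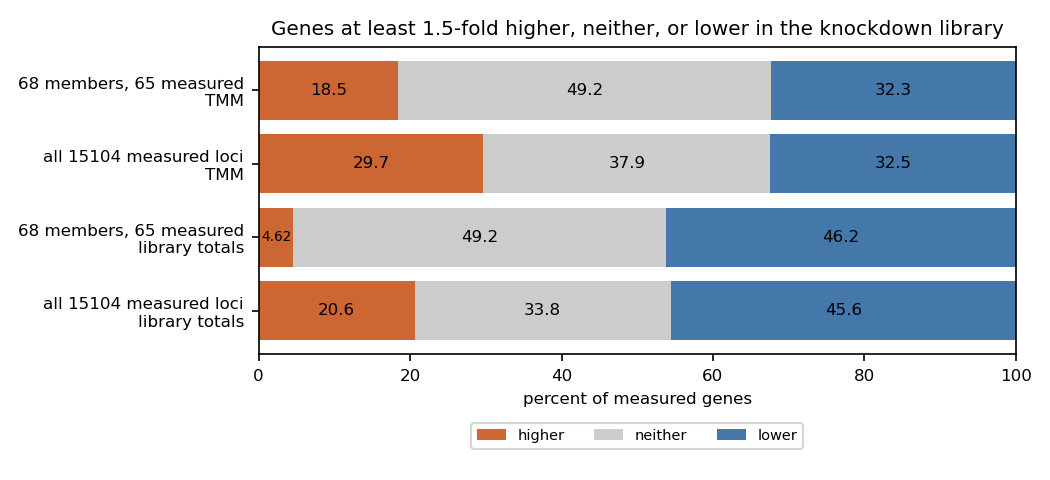
Percent of measured genes at least 1.5-fold higher, neither, or lower in the knockdown library, for the 65 measured chaperone genes and for all 15104 measured loci, with TMM scaling and with library totals. The chaperone genes have a smaller higher share (18.5 against 29.7 with TMM) and a nearly equal lower share (32.3 against 32.5).

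The order of levels at the top of the family was the same in both libraries. By FPKM, the deposited level per gene length, Hspa8 ranked 1, Hsp90ab1 2, Hsp90b1 3, Hspa5 4 and Hspe1 5 in both. These are the constitutive cytosolic HSP70, the constitutive cytosolic HSP90, the HSP90 and HSP70 of the endoplasmic reticulum (ER), and mitochondrial HSP10. Below them the order changed. Hspd1 moved from rank 6 to 16 and Hspb1 from 8 to 26, whereas Dnajc25 moved from 19 to 6. The FPKM values did not follow the library totals between libraries. Dnajc9, for example, had 29.4 CPM in both libraries but FPKM of 17.3 and 24.1. The median log2 ratio of the 65 genes by FPKM was 0.0099, near 0.012 with TMM and unlike -0.43 with library totals. FPKM thus gives no separate check on the choice of scaling.

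**Figure D2:**
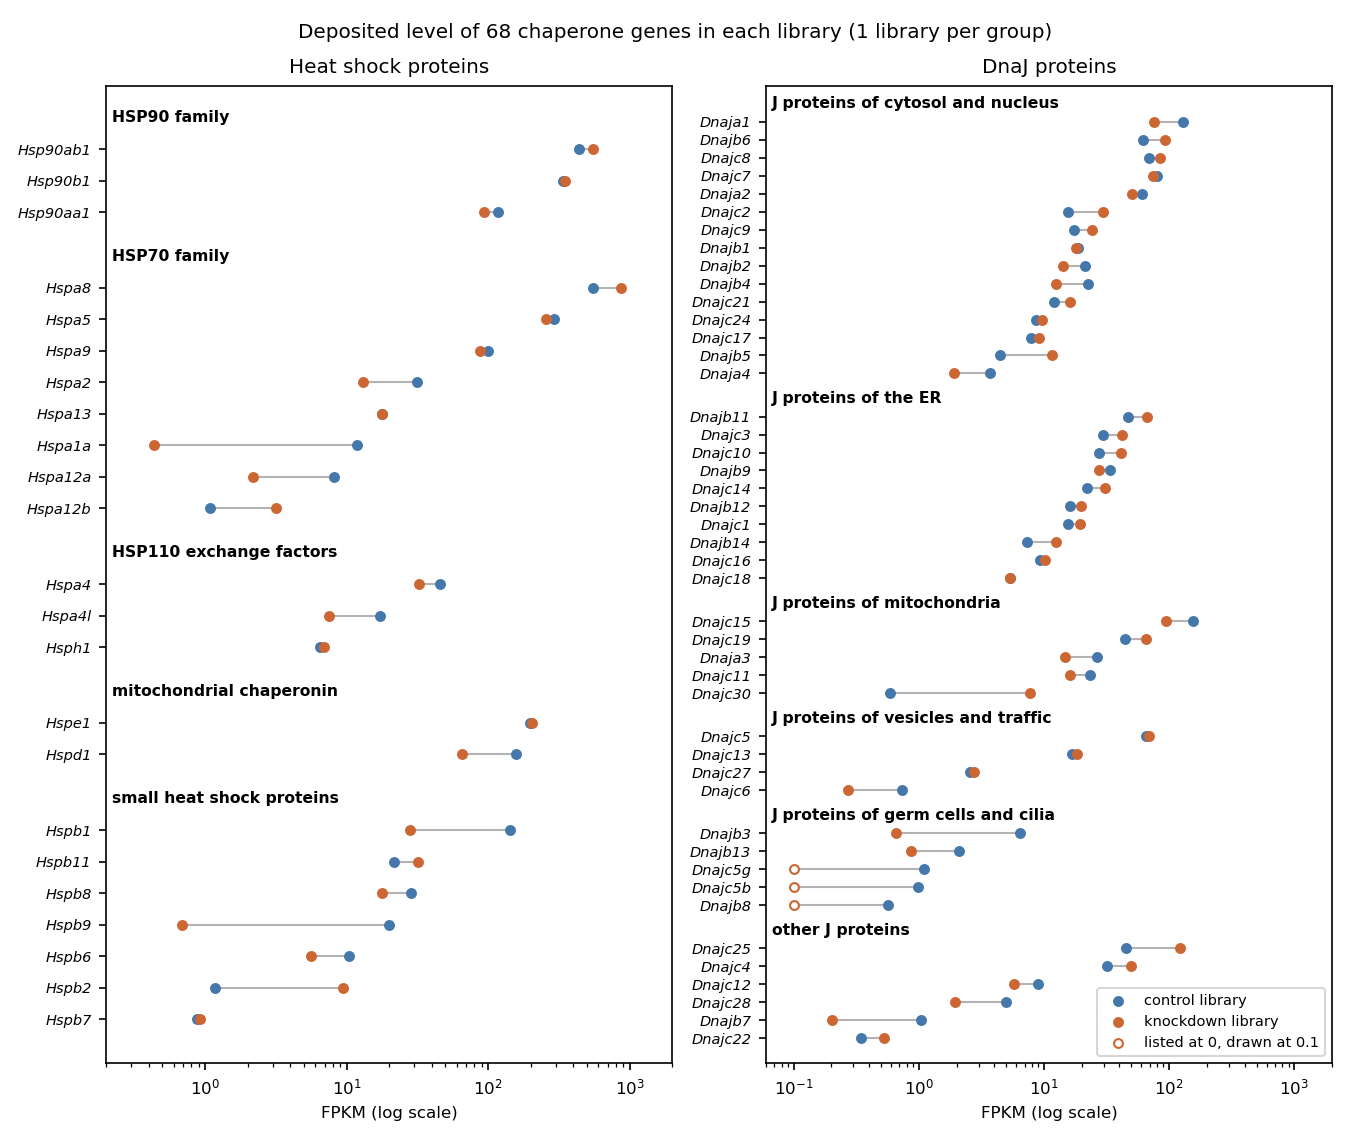
Deposited FPKM (log axis) of each of the 68 genes in the control library (blue) and the knockdown library (orange), grouped by role, with open points for genes listed at 0. Hspa1a, Hspb1, Hspb9, Hspd1 and the germ cell J proteins lie to the left in the knockdown library, and Dnajc30, Hspb2 and Dnajb5 to the right. Among the most abundant genes, Hsp90b1 and Hspe1 nearly coincide. Of the others, Hspa8 lies to the right (553 and 865), and Dnajc15 and Dnaja1 lie to the left.

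With TMM scaling none of the 3 HSP90 genes reached 1.5-fold in either direction. Hsp90ab1 had 23753 and 28425 counts in the control and knockdown libraries, a log2 ratio of 0.24 (0.21 to 0.26) that became -0.20 with library totals. Hsp90b1, also called Grp94, had 21460 and 21945 counts (log2 ratio 0.012, interval -0.015 to 0.039), or -0.43 with library totals. Hsp90aa1, the stress-inducible cytosolic form, had 7934 and 6438 counts (log2 ratio -0.32, interval -0.37 to -0.27). Hsp90aa1 counted as lower with library totals, at -0.76. Per length, Hsp90ab1 was 3.75 times as abundant as Hsp90aa1 in control testis and 5.84 times after knockdown.

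Within the HSP70 family the inducible gene stood far apart from the constitutive ones. Hspa1a (ENSMUSG00000091971, chromosome 17, 34969190 to 34972156 on GRCm38), the classical stress-inducible HSP70, had 568 and 20 counts. Knockdown testis thus held 28.1-fold less (log2 ratio -4.81, interval -5.57 to -4.21). It has a nearly identical neighbouring copy, Hspa1b, which was not analysed here, so how reads of both were shared is uncertain. It also overlaps Gm20481 on the opposite strand by 2225 bases, and that gene had 16 and 8 counts. Hspa8 (ENSMUSG00000015656, chromosome 9, 40800984 to 40810087), the most abundant chaperone gene in either library, had 26324 and 39688 counts. Its level was 1.49-fold higher, a log2 ratio of 0.57 (0.55 to 0.59), just under the 1.5-fold rule, and 0.13 with library totals. By FPKM it was 1.56-fold higher and counted as higher. Per length, Hspa8 was 47.0 times as abundant as Hspa1a in control testis and 1970.3 times after knockdown. Hspa1a was thus lower relative to Hspa8 in the knockdown library, where the ratio rests on 20 Hspa1a counts. Without Hspa1b, the inducible part of all cytosolic HSP70 transcripts was not measured.

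With TMM scaling the organelle HSP70 genes stayed within 1.5-fold. Hspa5, the ER protein BiP, had 16542 and 13983 counts (log2 ratio -0.26, interval -0.30 to -0.23). Hspa9, mitochondrial mortalin, had 5858 and 4637 counts (log2 ratio -0.36, interval -0.41 to -0.30). With library totals both counted as lower, Hspa5 at -0.71 and Hspa9 at -0.80. Hspa13 had 1268 and 1364 counts, and its interval spanned 0. Of Hspa12a and Hspa12b, which lie on chromosomes 19 and 2, Hspa12a was lower under both scalings. Hspa12a (ENSMUSG00000025092, chromosome 19, 58795750 to 58943654) had 1018 and 270 counts and was 3.82-fold lower, a log2 ratio of -1.93 (-2.13 to -1.74). Hspa12b, known from endothelial cells, had 67 and 113 counts and was 1.66-fold higher (log2 0.73, 0.29 to 1.19), and all 10 endothelial markers were higher too. The higher call for Hspa12b was lost with library totals, at 0.29. Hspa2, the HSP70 of spermatocytes, had 1940 and 1234 counts and was 1.59-fold lower. By FPKM it went from 31.4 to 13.0, a log2 ratio of -1.27 against -0.67 by counts. The 10 markers of spermatogonia and spermatocytes had log2 ratios of -3.25 or below, all beyond that of Hspa2.

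The HSP110 exchange factors, which recharge HSP70, had log2 ratios between -0.68 and 0.068. Hsph1, a heat-inducible member, had 522 and 555 counts (log2 0.068, -0.11 to 0.24). Hspa4 had 4235 and 3059 counts, a log2 ratio of -0.49, and counted as lower with library totals, at -0.93. Hspa4l, which in mice is abundant in testis, had 1796 and 1139 counts and was lower (log2 -0.68), with FPKM of 17.3 and 7.55.

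The genes of the mitochondrial chaperonin, which share a promoter region, had unlike ratios. Hspd1, which encodes HSP60 (ENSMUSG00000025980, chromosome 1, 55077835 to 55088243, minus strand), had 7092 and 3029 counts. The knockdown level was 2.37-fold lower (log2 ratio -1.25, interval -1.31 to -1.19). Hspe1, its HSP10 lid (ENSMUSG00000073676, chromosome 1, 55088132 to 55091307, plus strand), had 1616 and 1667 counts (log2 ratio 0.024, interval -0.075 to 0.12). The intervals of this head-to-head pair lie far apart under one scaling, and with library totals the ratios were -1.69 and -0.42. Per length, Hspe1 was 1.26 times as abundant as Hspd1 in control testis and 3.10 times after knockdown. The annotated genes overlap by 112 bases on opposite strands, and the strand that was counted is not stated.

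**Figure D3:**
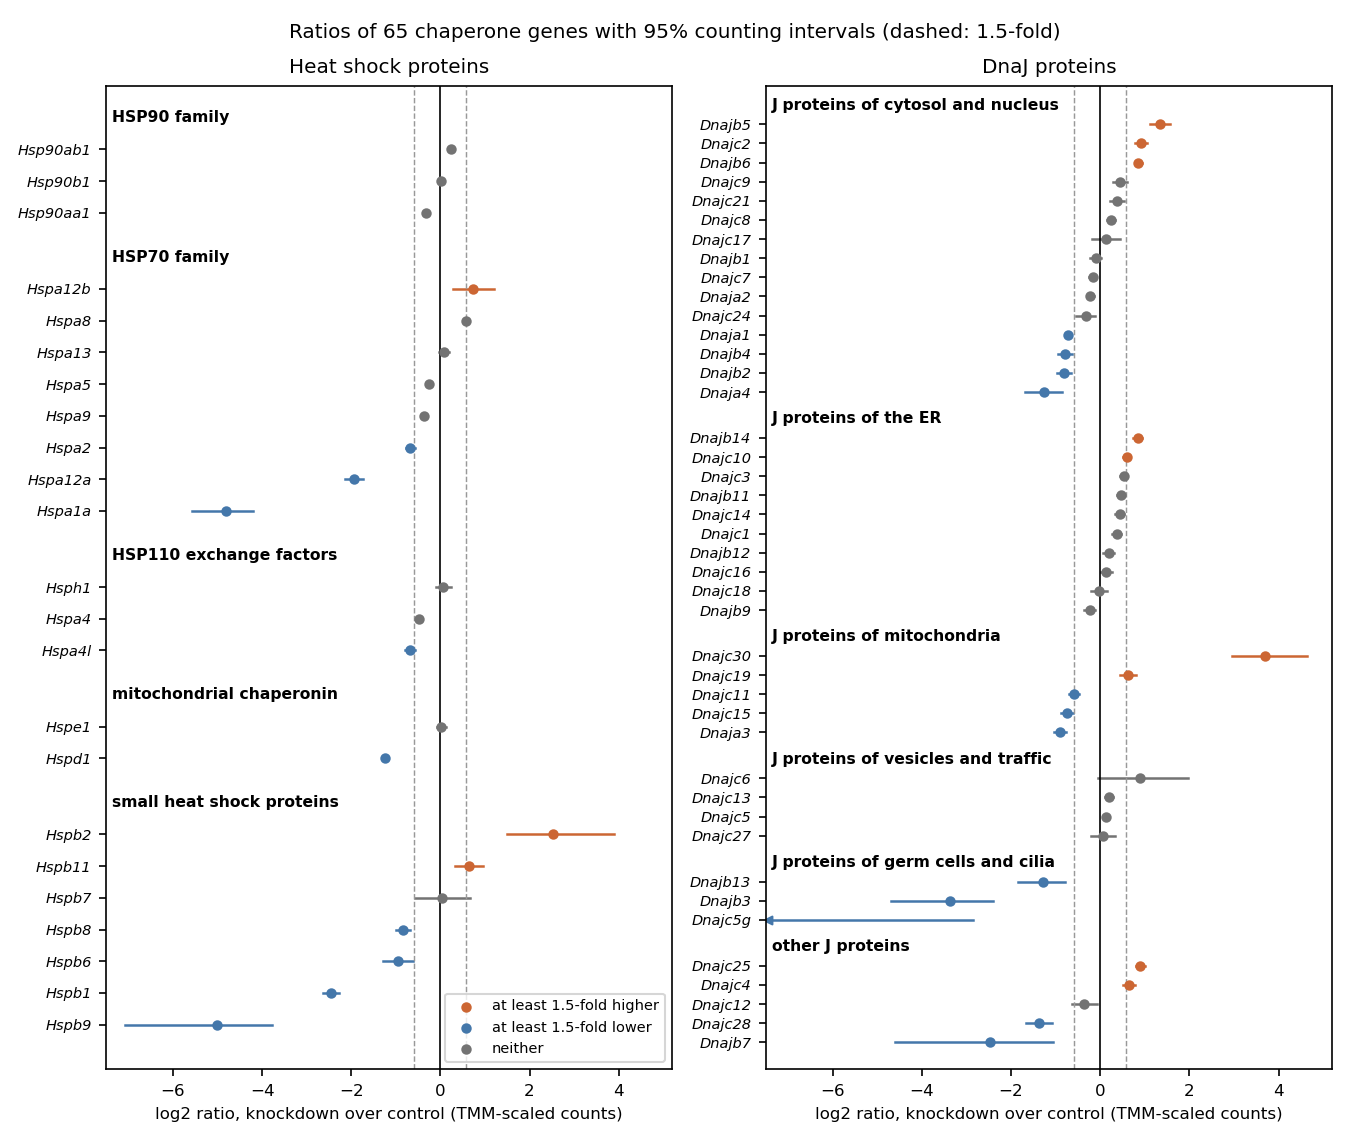
Log2 ratio of knockdown over control on TMM-scaled counts for the 65 measured genes, grouped by role, with 95% counting intervals, and dashed lines at 1.5-fold. Hspa1a at -4.81 and Hspb9 at -5.00 lie farthest left apart from Dnajc5g, and Dnajc30 at 3.70 farthest right, while the HSP90 genes stay between -0.32 and 0.24. The arrow marks Dnajc5g, with 0 counts in the knockdown library.

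Of 7 small heat shock proteins, 4 (57.1%) were lower, 2 (28.6%) higher and 1 neither, beside 32.5% and 29.7% of all loci. Hspb1 (ENSMUSG00000004951, chromosome 5, 135887919 to 135889563), the stress-inducible chaperone known in humans as HSP27, had 1559 and 288 counts. It was 5.48-fold lower, a log2 ratio of -2.45 (-2.64 to -2.27). Hspb8, which works with Bag3 in selective autophagy, had 873 and 497 counts and was 1.78-fold lower. Hspb6, also known as HSP20, had 215 and 113 counts and was 1.93-fold lower.

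Hspb9 (ENSMUSG00000017832, chromosome 11, 100713850 to 100714575), a small heat shock protein of testis, had 142 and 4 counts. It was 32.1-fold lower, with a wide log2 interval of -7.07 to -3.78 around -5.00. The spermatid markers were lower alongside it, 43.5 against 1.26 CPM. On the higher side, Hspb2 (ENSMUSG00000038086, chromosome 9, 50751078 to 50752354), known from muscle, had 8 and 49 counts, a log2 ratio of 2.52 with an interval of 1.504 to 3.884. Hspb2 overlaps Cryab, another small heat shock gene, by 1030 bases on the opposite strand, and Cryab was also higher, from 82 to 259 counts. Of 9 measured muscle and myoid markers, 3 were higher, 3 lower and 3 neither, with 561 and 291 CPM in sum. Hspb11, also called Ift25 and a part of the intraflagellar transport machinery, had 141 and 222 counts and was 1.55-fold higher. That call was lost with library totals (0.19) and by FPKM. Hspb7 had 45 and 47 counts.

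J proteins of the cytosol and nucleus went both ways. Of 15, 3 (20%) were higher, 4 (26.7%) lower and 8 neither, beside 29.7% and 32.5% of all loci. Dnaja1, a main cytosolic partner of HSP70, had 5696 and 3486 counts and was 1.66-fold lower, a log2 ratio of -0.73 (-0.79 to -0.67). Dnaja4 had 168 and 71 counts and was 2.39-fold lower (-1.68 to -0.85 on the log2 scale). Dnajb4 and Dnajb2 were 1.73-fold and 1.75-fold lower, and the call of Dnajb2 was lost by FPKM. On the higher side stood Dnajb5 (ENSMUSG00000036052, chromosome 4, 42949814 to 42959425), with 231 and 590 counts, 2.52-fold higher (log2 1.33, 1.11 to 1.56). Dnajc2, which works at the ribosome, had 709 and 1349 counts and was 1.88-fold higher. Dnajb6, which suppresses protein aggregation, had 1826 and 3353 counts and was 1.81-fold higher. With library totals Dnajb5 stayed higher, and the calls of Dnajc2 (0.47) and Dnajb6 (0.41) were lost.

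Dnajb1, the classical heat-inducible HSP40, was near equal, with 1040 and 984 counts (log2 -0.10, -0.23 to 0.027). The remaining 7 cytosolic and nuclear J proteins, the splicing proteins Dnajc8 and Dnajc17 and the histone chaperone Dnajc9 among them, had log2 ratios of -0.33 (Dnajc24) to 0.44 (Dnajc9). Among them Dnaja2 (-0.67), Dnajc7 (-0.61) and Dnajc24 (-0.77) counted as lower with library totals.

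Of 10 ER J proteins, 2 (20%) were at least 1.5-fold higher, 8 were neither and none was lower. Over all loci 29.7% were higher and 32.5% lower. The median log2 ratio of the 10 genes, 0.41, became -0.037 with library totals. Dnajb14, an ER membrane protein, had 1152 and 2089 counts and was 1.79-fold higher (log2 0.84, 0.73 to 0.94). Dnajc10, a disulphide reductase of the ER, had 2062 and 3159 counts and was 1.51-fold higher. With library totals both calls were lost, at 0.40 and 0.15, and that of Dnajc10 was lost by FPKM too. Dnajc3, which restrains eIF2alpha kinases, had 2730 and 3983 counts and was 1.44-fold higher. Dnajb9, a stress-inducible partner of BiP, had 1249 and 1073 counts and the lowest ratio of the 10, -0.24, which with library totals was -0.68 and counted as lower. The other 6 lay between -0.02 for Dnajc18 and 0.47 for Dnajb11. The ER stress element was found in the promoter windows of Hspa5, Hsp90b1 and Dnajc3, 3 of the 71 chaperone windows (4.23%) against 0.119% of all 32851 windows, and these 3 genes had log2 ratios of -0.26, 0.012 and 0.52.

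All 5 J proteins grouped here as mitochondrial were called, 3 (60%) lower and 2 (40%) higher, beside 32.5% and 29.7% of all loci. Dnaja3, also called Tid1 and a partner of Hspa9, had 1266 and 691 counts and was 1.86-fold lower (log2 -0.89, -1.03 to -0.76). It shares 10814 bases with Vasn on the same strand, which was lower too, from 1231 to 499 counts, and it overlaps Coro7 on the other. Dnajc15, of the inner membrane, had 1130 and 686 counts and was 1.67-fold lower. Dnajc11 had a log2 ratio of -0.59, at the edge of the rule, and its call was lost by FPKM. Dnajc19, of the protein import motor, had 411 and 640 counts and was 1.53-fold higher, a call that was lost with library totals (0.18) and by FPKM.

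Dnajc30 (ENSMUSG00000061118, chromosome 5, 135064202 to 135065862), a mitochondrial inner membrane protein, had the highest ratio of all 65 genes. It had 14 and 191 counts and was 13.0-fold higher (log2 ratio 3.70, interval 2.97 to 4.65). By FPKM it went from 0.590 to 7.70. The gene overlaps Bud23 by 758 bases on the opposite strand, and Bud23 had 520 and 450 counts. Reads of the overlap cannot be told apart without the strand that was counted.

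Of 5 J proteins of germ cells and cilia, the 3 that reached 1 CPM were lower, beside 32.5% of all loci. Of the 3, Dnajb3 and Dnajc5g reached 1 CPM in the control alone. Dnajb3, known from mouse spermatids, had 86 and 8 counts and was 10.3-fold lower (log2 -3.37, -4.70 to -2.40), and it lies within Ugt1a genes on the opposite strand. Dnajb13, a sperm axoneme protein, had 107 and 44 counts and was 2.45-fold lower. Dnajc5g had 28 and 0 counts, which puts it at least 9.47-fold lower against a floor of 3 counts. Dnajc5b had 13 and 0 counts and Dnajb8 had 7 and 0, and both stayed below 1 CPM. The germ cell markers above were lower as well. Without this group, Hspa2, Hspa4l and Hspb9 (chosen after the data were seen), 15 of 59 chaperone genes were lower and 12 higher. Over all loci, with none left out, 32.5% were lower and 29.7% higher.

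None of the 4 J proteins of vesicle traffic was called in either direction, beside 29.7% of all loci higher and 32.5% lower. Dnajc5, the cysteine string protein, had 4755 and 5243 counts, and Dnajc13, of endosomes, 2023 and 2349. Neither they nor Dnajc27, with 214 and 227 counts, reached 1.5-fold. Dnajc6, the clathrin-uncoating protein auxilin, had 14 and 27 counts but FPKM of 0.737 and 0.272, so the count and the level per length gave opposite directions for this scarce gene.

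Among the other J proteins, Dnajc25 had 1128 and 2140 counts and was 1.87-fold higher (log2 0.90, 0.80 to 1.01), and FPKM of 44.8 and 122 gave a log2 ratio of 1.45. It shares 22364 bases with Gm20503 on the same strand. Dnajc4 had 703 and 1114 counts and was 1.56-fold higher. With library totals the calls of Dnajc25 (0.46) and Dnajc4 (0.20) were lost. Dnajc28 had 364 and 143 counts and was 2.58-fold lower (-1.66 to -1.09 on the log2 scale). Dnajb7 had 24 and 4 counts (log2 ratio -2.46, interval -4.59 to -1.06), and lies within Xpnpep3 on the opposite strand, which was lower too, from 488 to 244 counts. Dnajc12 had 242 and 191 counts and counted as lower with library totals (-0.80) and by FPKM. Dnajc22, with 7 and 12 counts, stayed below 1 CPM.

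Pairs of heat shock units were compared between chaperone promoters and all promoters of the same length. A pair in either order was found for 14 of 54 genes and in 16 of their 71 windows (22.5%), against 15.1% of all 32851 windows. A run of 3 units, GAANNTTC followed directly by NNGAA and searched on both strands, was found for Dnajb6, Hspd1, Hspe1 and Hsph1, 6 of the 71 windows (8.45%) against 0.603% of all. Pairs overlap within such a run. These 6 windows hold 3 distinct runs, since Dnajb6 and Hsph1 each have a pair of overlapping windows and Hspd1 and Hspe1 share a run. The 16 windows with a pair repeat the pairs of these genes in the same way. Hspd1 and Hspe1, which share their pairs, both count among the 14 genes. In the windows printed above, the pair of Hspa1a begins 104 bases before the start site and those of Hspb1 begin 117 and 97 bases before it. Those of Hspe1 form a run that begins 89 bases before its start site and is the same run that faces Hspd1.

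A gene counted as having a pair if any of its windows held one. Dnaja1, Dnaja4, Dnajb4, Hspb6 and Hspd1, all lower, also have windows without a pair. The only pairs of Hspb8 and Dnajc5g, lower too, begin 2 and 33 bases after the start site. Of the 14 genes with a pair, 9 (64.3%) were lower, 2 (14.3%) higher and 3 neither. Over all loci, with or without a pair, 32.5% were lower and 29.7% higher. The median log2 ratio of the 14 genes was -0.81, with values from the bound for Dnajc5g up to 0.86 for Dnajb6. Of 39 measured genes with a window and no pair, 11 (28.2%) were lower, 7 (17.9%) higher and 21 neither. The median of those 39 was 0.042. Genes without a window entered neither group. Among these, Dnajc2, Dnajc30 and Hspb2 were higher and Dnajc11 was lower. The others that were measured, with the abundant Hspa8, Hsp90aa1 and Hsp90ab1 among them, were neither. Among the 4 genes with a run of 3 units, Hspd1 was lower, Dnajb6 higher, and Hspe1 and Hsph1 near 0. A match describes letters in the window and was not tested as a binding site. A relation between pairs and ratios was not tested either.

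Among other genes of the chaperone network, the HSP70 and HSP90 co-chaperones included several far lower genes. Of 30, 10 (33.3%) were lower, none higher and 20 neither, beside 32.5% of all loci lower and 29.7% higher. The list median log2 ratio was 0.031, or -0.41 with library totals. Fkbp5, an HSP90 partner in steroid receptor complexes, had 5665 and 816 counts (log2 ratio -2.82, interval -2.92 to -2.71). Fkbp4, another such partner, had 6632 and 1891 counts, a ratio of -1.83. Bag2, an HSP70 exchange factor, was at -2.81 and Cdc37l1 at -1.30. Bag3, chosen after its value was seen as the partner of Hspb8, had 675 and 977 counts, a ratio of 0.51.

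The TRiC chaperonin and prefoldin, which fold actin and tubulin, were nearly even. Of 13 measured genes, 11 were neither, Pfdn4 was higher at 0.99 and Cct6b, the testis form of a TRiC subunit, was lower from 89 to 4 counts. Over all loci 29.7% were higher and 32.5% lower. Cct4 and Cct5, next by the naming rule, had ratios of 0.38 and 0.32. The list median of 0.26 became -0.18 with library totals.

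Of 27 measured ER folding genes, 9 (33.3%) were higher, near the 29.7% of all loci, and 4 (14.8%) were lower, beside 32.5% of all loci. Serpinh1, the collagen chaperone HSP47, had 757 and 3985 counts (log2 ratio 2.38, interval 2.26 to 2.49). Ero1l, an ER oxidase, had a ratio of 1.45. Beside them, 9 of 10 fibroblast markers were higher, collagen chains among them, with sums of 1396 and 8570 CPM. The lower genes by the naming rule were Clgn, a calnexin of spermatocytes and spermatids, at -4.94, and Calr3, a testis calreticulin, at -2.10. The list median of 0.39 became -0.056 with library totals.

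Of 8 measured mitochondrial proteases and crystallins, 4 (50%) were lower and 2 (25%) higher, beside 32.5% and 29.7% of all loci, around a median of -0.60 (-1.05 with library totals). Lonp1, the matrix protease, had 5390 and 1693 counts, a ratio of -1.69, and Clpx, an unfoldase, 1780 and 739 counts, a ratio of -1.29. Htra2, of the intermembrane space, had 423 and 1754 counts, a ratio of 2.03, and Cryab 1.63.

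The list of heat shock factors and related genes was mixed. Of 7 measured on the list, 3 (42.9%) were lower, 1 (14.3%) higher and 3 neither, beside 32.5% and 29.7% of all loci. The 7 include Hsbp1, Hsbp1l1 and Hsf2bp, which are not heat shock factors themselves. Hsf5, a factor of spermatocytes, went from 123 counts to 0, at least 41.6-fold lower. Hsbp1l1 was lower, from 27 to 3 counts, as was Hsf2bp, a meiotic protein, from 43 to 13. Hsf4 was higher, from 15 to 69 counts. Hsf1, the main stress factor, chosen after its value was seen, had 477 and 608 counts, a log2 ratio of 0.33, or -0.11 with library totals.

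**Figure D4:**
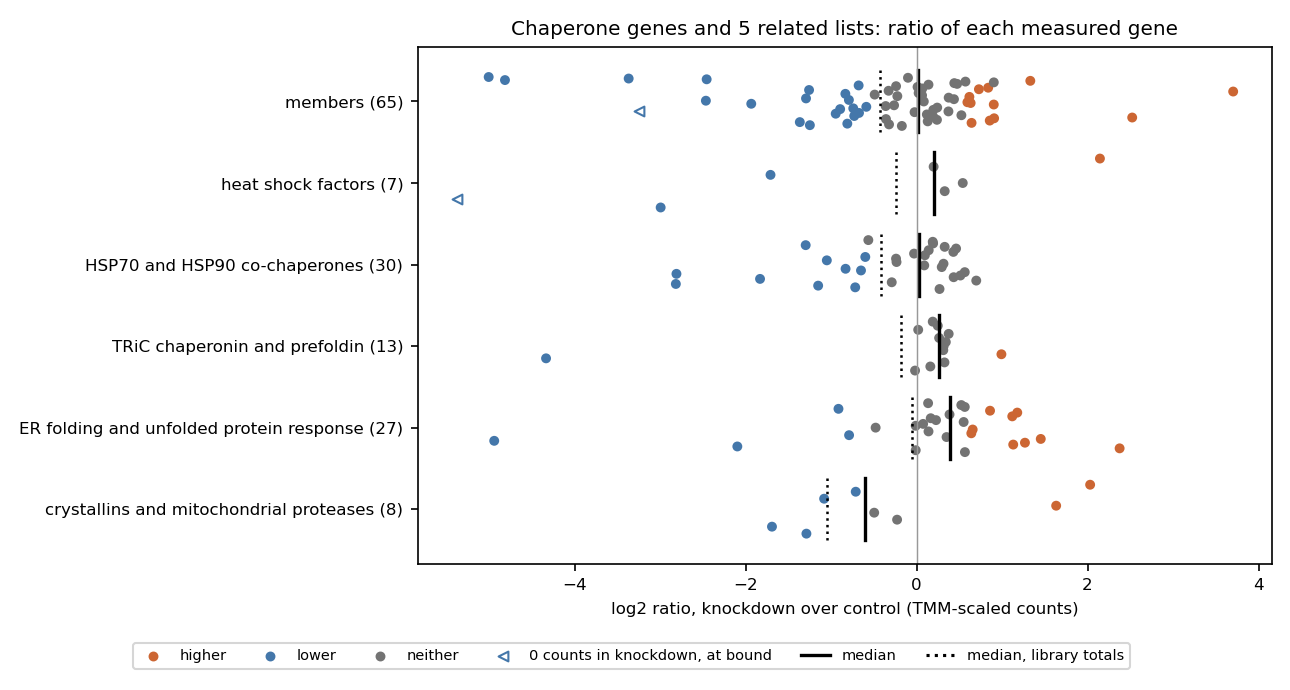
Log2 ratio of knockdown over control (TMM-scaled counts) for the 65 measured chaperone genes and the measured genes of 5 related lists, with the median (solid) and the median with library totals (dotted). The TRiC genes lie close together apart from Cct6b at -4.33 and Pfdn4 at 0.99, and the co-chaperones have a tail of lower genes down to -2.82. Triangles mark genes with 0 counts in the knockdown library, drawn at their bound.

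The authors' deposited table, an EBSeq comparison whose cutoffs were FDR 0.01 and fold 2, calls 1 of the 68 genes up, 6 down and 58 normal, and gives 3 no value. In the authors' deposited table Dnajc30 is up at a log2 fold change of 3.56. The genes it calls down are Dnajb3, Dnajc5g, Hspa12a, Hspa1a, Hspb1 and Hspb9. Each of those calls rests on the same single libraries.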

How the data were processed

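Testis RNA was sequenced in 1 control and 1 knockdown library, extracted with TRIzol and prepared with a stranded mRNA kit, per the labels' protocols. Tools listed without role or order, per the submitters' processing notes, are STAR 2.5.3a, Trimmomatic 0.36, Subread 1.5.1, featureCounts, DESeq and edgeR 3.12.1, with the build mm10. The deposited table gives raw counts and FPKM values made by the authors, and their EBSeq FDR, log2 fold change and call, per the file headers. Neither the counted strand nor the annotation is stated there.

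TMM scaling in edgeR 4.0.16 under R 4.3.3 gave factors of 1.17 (control) and 0.858 (knockdown). Log2 ratios used a prior count of 0.5, and intervals are 95% Clopper-Pearson intervals of the knockdown share of both counts. Genes needed 1 CPM in 1 library. A gene at 0 was set against a floor of 3 counts, 0.168 CPM (control) and 0.122 CPM (knockdown). Whether reads were collapsed by molecular identifiers is not stated, and intervals and floors cover counting error only. FPKM ratios used a pseudocount of 0.1, and the FPKM values did not follow the library totals. No p-value was computed, since each group has 1 library. The ratios, intervals and calls were tested on simulated counts in which few genes differed, scaled by their known totals. TMM scaling was not part of that test.

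Coordinates follow GENCODE M21 (GRCm38), which held all 68 identifiers. Promoters are from RefSeq. Values in full were planned for the 12 higher and 12 lower members whose interval bound nearest 0 lay farthest from 0, the 10 with the highest mean FPKM, and up to 4 genes of each other list. Other members were grouped by role. The members and lists were chosen with earlier results of these data known. Alternatives were size factors from DESeq2 1.42.0, scaling by totals, another prior count, other filters, FPKM, and a 2-fold interval rule. Python 3.11.15, numpy 2.4.6, scipy 1.17.1, pandas 2.3.3 and matplotlib 3.10.9 were used.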

Additional observations from a re-analysis of the deposited data

How the results depend on the processing

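No paired analysis was possible because there is 1 library on each side, and leaving 1 out would end the comparison. Library totals lowered the count of higher genes from 12 to 3 and the median log2 ratio from 0.012 to -0.43, with 30 in place of 21 lower. The rule of a whole interval beyond 2-fold left 3 higher and 9 lower. FPKM, DESeq2 size factors, unfiltered counts, a filter at 5 CPM and a prior count of 5 gave 10 to 12 higher and 18 to 23 lower genes. A filter on the mean of both libraries and leaving out germ cell members were chosen after the data were seen and gave 12 higher each, with 19 and 15 lower. Of the 32 genes named by the rule, library totals moved 24 beyond their counting interval, FPKM 7 and the prior count of 5 moved 1, Dnajc5g. None of the 32 that counted as higher or lower changed sign under any alternative run. Summing Hspa1a with Hspa1b was not run, since Hspa1b was not analysed here. Depth limits Dnajb3, Dnajb7, Dnajc5g, Dnajc6, Dnajc30, Hspb2 and Hspb9, the measured genes with at most 14 counts in 1 library.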

Other observations

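The related genes that the naming rule leaves out were measured as well. Hspa1l, a germ cell HSP70 next to Hspa1a in the genome, had 64 and 18 counts in the control and knockdown libraries and was 3.54-fold lower, with a log2 interval of -2.69 to -1.08. Hspbap1 had 130 and 279 counts and was 2.11-fold higher, with a log2 interval of 0.78 to 1.39. Hspbp1, an HSP70 exchange factor, had 588 and 638 counts, and its interval spanned 0.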
